A study of Mus with 12 samples.

Results

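Collagen genes were taken as all genes whose symbol on the array reads Col, a number, a and a number, which gave 42 of the 19505 genes with a symbol. Each of the 42 was read by 1 probe set. RefSeq lists 44 protein-coding mouse genes with such a symbol, and the other 2, Col7a1 and Col12a1, were not analysed here. RNA of whole kidneys of male C57Bl/6j mice, 6 months old, was measured on Clariom S arrays, 3 mice in each of 4 groups. KO AKI were mice lacking Apobec1 on both alleles, killed 3 days after cisplatin at 15 mg/kg, and WT AKI were wild type mice given the same dose. KO control and WT control were mice of the same genotypes given saline. Cisplatin is a chemotherapy drug that injures the kidney tubule (acute kidney injury, AKI), and Apobec1 encodes an RNA-editing cytidine deaminase. The KO line was backcrossed to C57Bl/6j. By the labels the KO mice were bred in house and the WT mice purchased, in which case genotype and source of the mice cannot be told apart, while the study's methods also speak of littermates.

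Collagens are triple-helical proteins of the extracellular matrix. Fibrillar collagens such as types I and III form the fibers of the interstitium and are laid down by fibroblasts in a kidney that scars. Type IV collagen is the network of basement membranes: the α1 and α2 chains are found under nearly all epithelia and endothelia, while the α3, α4 and α5 chains form the network of the mature glomerular filter and of some tubules, and their loss causes Alport syndrome. Other members bind fibrils, form beaded filaments or span the plasma membrane, and the multiplexins, types XV and XVIII, sit where basement membranes meet the interstitium.

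The arrays had median log2 signals between 5.79 and 6.00. A signal was called above background where it exceeded the 95th percentile of 23 control probe sets on that array, whose antigenomic sequences match no mouse transcript. Apobec1 had log2 signals of 9.75, 7.33 and 8.48 in KO AKI, against 7.58, 7.50 and 7.66 in KO control. It had 8.97, 8.56 and 8.38 in WT AKI, against 7.18, 6.63 and 7.33 in WT control. The probe set of the disrupted gene was thus not lower on the arrays labelled KO. Which part of the transcript it reads is not given, so it does not check the genotype labels, and KO and WT below are the labels. KO AKI replicate 2 stood apart from the other arrays: the summed level of 8 proximal tubule genes was a log2 of 16.62 on that array, against 19.01 and 19.89 on the other KO AKI arrays and 20.24 to 20.52 in WT AKI.

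Of the 42 collagen genes, 14 lay above background on all 12 arrays, 4 on some and 24 on none, against 7432, 3037 and 9036 of all genes. The 14 were the fibrillar chains Col1a2, Col3a1, Col11a2 and Col27a1, the type IV chains Col4a1, Col4a2, Col4a3 and Col4a4, and Col18a1, Col6a3, Col8a2, Col16a1, Col20a1 and Col13a1. Col1a1 and Col6a1 lay above background on 5 arrays each, all of them from cisplatin-treated mice, Col25a1 on 2 WT AKI arrays, and Col28a1 on 1 KO control and 1 WT control array. The type V chains Col5a1, Col5a2 and Col5a3, which nucleate type I fibrils, were on no array above background, nor were the type VI chains Col6a2, Col6a4, Col6a5 and Col6a6. A change in a gene below background in both groups is given only as log2 signals, since its fold cannot be read.

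**Figure D1:**
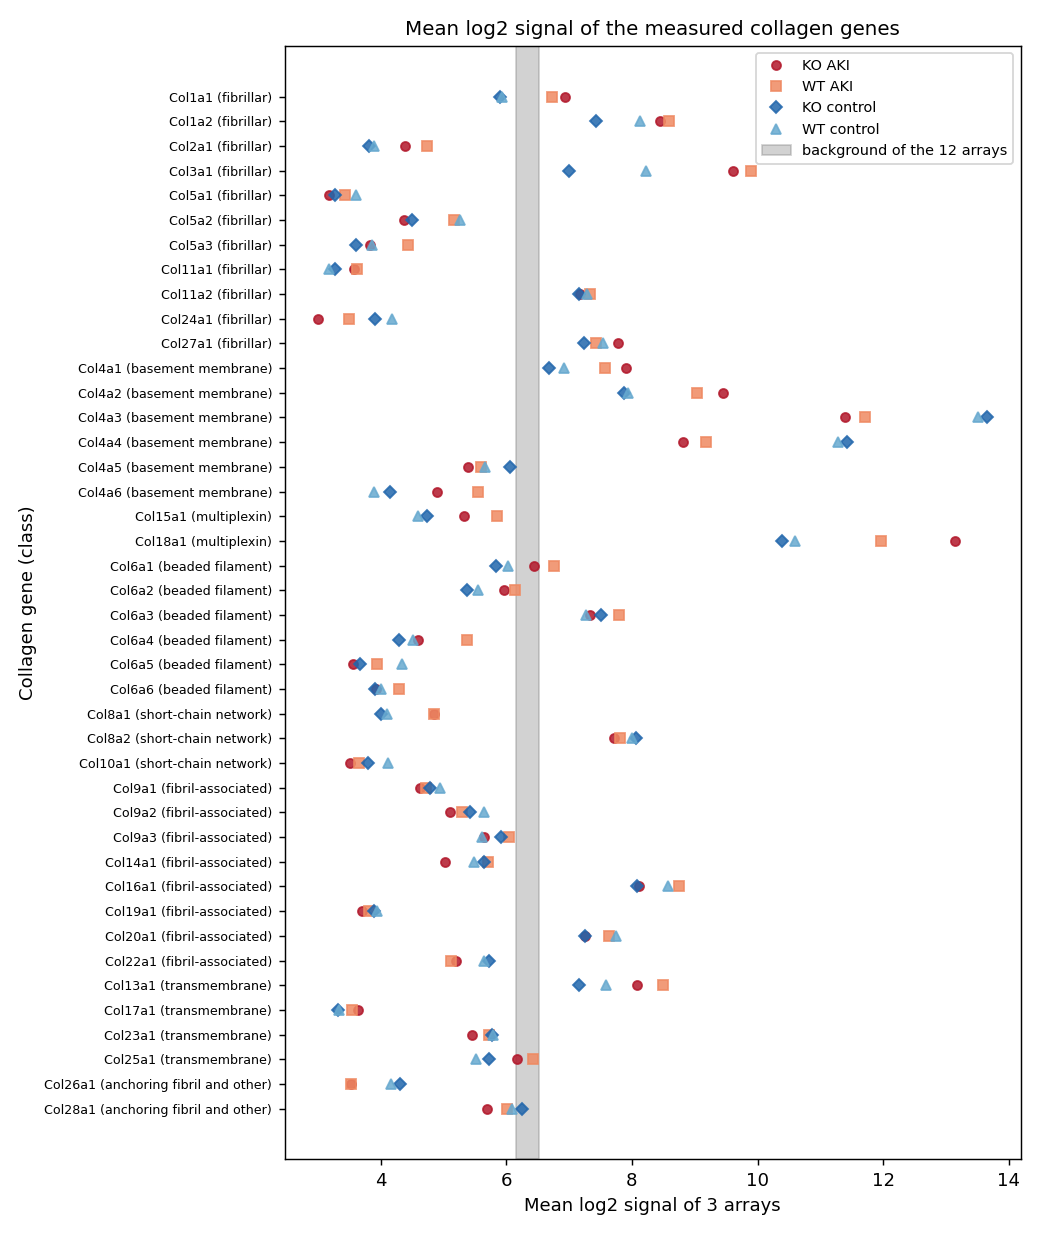
Mean log2 signal of the 3 arrays of each group (x axis) for the 42 collagen genes (y axis, with the class of each). The grey band spans the background of the 12 arrays; Col4a3 and Col4a4 lie lower and Col18a1 and Col3a1 higher in both AKI groups than in both control groups, and 24 genes were above background on no array.

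Cisplatin changed collagen genes in both genotypes and in both directions. In KO kidneys 9 of the 42 rose and 7 fell at an adjusted p under 0.05 (limma, Benjamini-Hochberg over all 19505 genes), against 15.4% of all genes that rose and 12.6% that fell. In WT kidneys 8 rose and 2 fell, against 8.63% and 5.34% of all genes. These are 21.4% up and 16.7% down of the members in KO, and 19.0% up and 4.76% down in WT. Of these calls, 2 rises and 5 falls in KO and 4 rises in WT were in genes below background in both groups compared. The falls in genes above background were those of Col4a3 and Col4a4 in both genotypes. Both comparisons called 7 genes in the same direction, namely Col3a1, Col4a2, Col18a1, Col4a6 and Col8a1 up and Col4a3 and Col4a4 down. The median log2 difference over the 42 genes was 0.02 in KO and 0.21 in WT, beside 0.06 and 0.06 over all genes. These medians and counts moved with the scaling of the arrays: quantile normalization gave 8 up and 8 down in KO and 5 up and 5 down in WT, and centring each array on its median, which lowered the median of all genes to -0.07 and -0.09, gave 7 up and 8 down in KO and 4 up and 5 down in WT.

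Of the 6 type IV chains, Col4a2 and Col4a6 rose and Col4a3 and Col4a4 fell in both genotypes, while Col4a1 was called up and Col4a5 down in KO and neither was called in WT. For 0 of the 6 was the difference between the genotypes' responses called by limma, with Col4a6 at an unadjusted p under 0.05. Col4a1 and Col4a2, which are neighbours in the RefSeq annotation, encode the chains of the widespread network. Col4a1 had log2 signals of 7.49, 7.96 and 8.24 in KO AKI, against 6.87, 6.75 and 6.43 in KO control, and of 7.57, 7.60 and 7.53 in WT AKI, against 6.98, 7.06 and 6.71 in WT control. Every AKI array lay above every control array. Col4a1 rose 2.32-fold in KO AKI over KO control (log2 difference 1.21, SE 0.22, adjusted p = 0.00124). The log2 difference of WT AKI over WT control was 0.65 (SE 0.22, adjusted p = 0.0602), which did not pass with all arrays but did without any 1 of the KO AKI arrays (adjusted p from 0.0372 to 0.0475).

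Col4a2 had log2 signals of 8.87, 10.19 and 9.30 in KO AKI, against 7.28, 7.98 and 8.35 in KO control. In WT AKI they were 9.34, 8.65 and 9.13, against 8.08, 7.59 and 8.15 in WT control. The groups did not overlap within either genotype, and KO AKI replicate 2 was the highest of the 12 arrays. The rise was 2.99-fold in KO (log2 difference 1.58, SE 0.34, adjusted p = 0.00441) and 2.15-fold in WT (log2 difference 1.10, SE 0.34, adjusted p = 0.0489). The WT call was near the threshold and was lost without KO AKI replicate 3, KO control replicate 2 or any of the 6 WT arrays, the adjusted p reaching 0.155, and also after quantile normalization, median centring, the filter on dim genes and with the replicate number as a block.

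Col4a3 and Col4a4, also neighbours in the annotation, encode chains of the glomerular network and fell in both genotypes. Col4a3 had log2 signals of 12.35, 10.12 and 11.69 in KO AKI, against 13.91, 13.13 and 13.92 in KO control, and of 12.01, 11.68 and 11.45 in WT AKI, against 13.77, 13.00 and 13.77 in WT control. All 6 AKI arrays lay below all 6 control arrays. Col4a3 was 4.81-fold lower in KO AKI (log2 difference -2.27, SE 0.45, adjusted p = 0.00246) and 3.48-fold lower in WT AKI (log2 difference -1.80, SE 0.45, adjusted p = 0.0184). The WT call was lost without WT AKI replicate 2 or 3 or without WT control replicate 1 or 3, the adjusted p reaching 0.0713.

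Col4a4 showed the largest fall among the 42 genes in either genotype. Its log2 signals were 10.00, 7.73 and 8.71 in KO AKI, against 11.48, 11.32 and 11.46 in KO control. They were 9.28, 9.29 and 8.97 in WT AKI, against 11.50, 11.04 and 11.32 in WT control. Again all AKI arrays lay below all control arrays, with KO AKI replicate 2 the lowest for Col4a4 as for Col4a3. The fall was 6.11-fold in KO (log2 difference -2.61, SE 0.40, adjusted p = 0.000448) and 4.31-fold in WT (log2 difference -2.11, SE 0.40, adjusted p = 0.00448). Without KO AKI replicate 2 the KO differences were -1.63 for Col4a3 and -2.07 for Col4a4, with adjusted p of 0.00193 and 0.000209.

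Col4a5, the partner of the α3 and α4 chains, and Col4a6, its neighbour on the annotation, were below background on all arrays. Col4a5 had log2 signals of 5.57, 5.47 and 5.12 in KO AKI, against 5.86, 6.24 and 6.08 in KO control (adjusted p = 0.0355), and of 5.45, 5.62 and 5.72 in WT AKI, against 5.95, 5.25 and 5.79 in WT control (adjusted p = 0.877). Col4a6, whose chain is known from smooth muscle and some tubule and Bowman's capsule basement membranes, had log2 signals of 4.74, 4.70 and 5.27 in KO AKI, against 4.35, 3.97 and 4.11 in KO control (adjusted p = 0.0195), and of 5.78, 5.60 and 5.24 in WT AKI, against 3.75, 4.05 and 3.89 in WT control (adjusted p = 0.000444). Both passed the test at least in KO, and since neither reached background, no fold is given. The KO calls of both were lost without KO AKI replicate 3 or KO control replicate 2 or 3, the adjusted p reaching 0.118 for Col4a5 and 0.0771 for Col4a6.

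**Figure D2:**
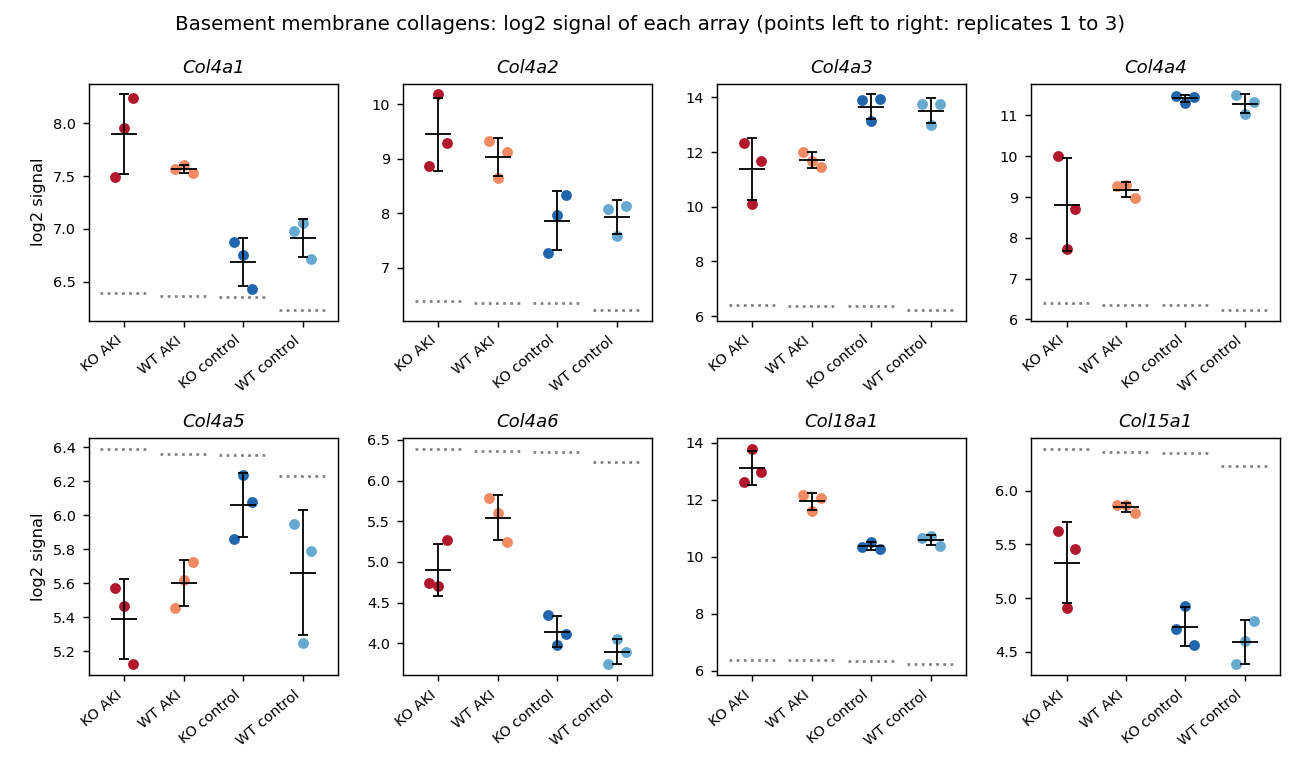
Log2 signal (y axis) of each array for the 6 type IV chains and the multiplexins Col18a1 and Col15a1, by group (x axis). Points are arrays, bars show the mean and SD of 3 arrays and dotted lines the mean background of the group; Col4a1, Col4a2 and Col18a1 lie higher and Col4a3 and Col4a4 lower in AKI than in control, and Col4a5, Col4a6 and Col15a1 stay below background.

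Markers of podocytes, the glomerular cells known to make the α3, α4 and α5 chains, were read beside Col4a3 and Col4a4. Of 5 measured podocyte genes, 0 were called by limma in either genotype, and at an unadjusted p under 0.05 there was 1 down in KO, Podxl at -0.53 (adjusted p = 0.0539), and 0 in WT. Their log2 differences lay between -0.53 and 0.45 in KO and between -0.27 and 0.73 in WT, and 1 of them, Wt1, was below background on all arrays. Their summed log2 level was 10.39 to 10.50 in KO AKI, against 10.57 to 10.89 in KO control, and 10.25 to 10.47 in WT AKI, against 10.25 to 10.61 in WT control. Nphs1, which encodes nephrin of the slit diaphragm, differed by -0.12 (SE 0.21) in KO and by -0.27 (SE 0.21) in WT on the log2 scale, beside -2.27 and -1.80 for Col4a3. Genes of the distal nephron and collecting duct fell in part, with 4 of 8 called down in KO and 3 of 8 in WT. Their median log2 difference was -1.78 in KO (from -8.59 to 0.21) and -1.48 in WT (from -6.13 to 0.49). Of 8 proximal tubule genes, 7 were called down in KO and 0 in WT, where 1 was down at an unadjusted p under 0.05. The median of the proximal tubule genes was -3.21 in KO and -0.57 in WT. Of all genes, 12.6% were called down in KO and 5.34% in WT. The part of tubule cells in the fall of Col4a3 and Col4a4 was not tested. In RNA of a whole organ, fewer cells of a type and less RNA per cell cannot be told apart.

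Col18a1, which encodes the multiplexin whose C-terminal fragment is endostatin, had the largest rise of the 42 genes after cisplatin in KO kidneys when all arrays were used, and the next to Col3a1 without KO AKI replicate 2 (log2 differences of 2.42 for Col18a1 and 3.43 for Col3a1). Its log2 signals were 12.64, 13.80 and 12.97 in KO AKI, against 10.35, 10.53 and 10.27 in KO control. They were 12.19, 11.62 and 12.06 in WT AKI, against 10.66, 10.72 and 10.38 in WT control. The AKI arrays lay above the control arrays, and all KO AKI arrays lay above all WT AKI arrays. Col18a1 rose 6.73-fold in KO (log2 difference 2.75, SE 0.27, adjusted p = 1.38e-05) and 2.58-fold in WT (log2 difference 1.37, SE 0.27, adjusted p = 0.00541). Both calls were kept without each of the 12 arrays in turn. Without KO AKI replicate 2, its highest array, the KO difference was 2.42 (adjusted p = 4.19e-06). Col15a1, the other multiplexin, was below background on all arrays, with 5.63, 4.91 and 5.46 in KO AKI, against 4.71, 4.93 and 4.56 in KO control (adjusted p = 0.0521, which became 0.0116 with KO AKI replicate 2 left out), and 5.87, 5.87 and 5.79 in WT AKI, against 4.39, 4.60 and 4.79 in WT control (adjusted p = 0.00241).

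Among the 11 fibrillar genes, 3 rose and 1 fell in KO. In WT 1 rose and 0 fell, and 1 was down at an unadjusted p under 0.05. These were 27.3% up and 9.09% down in KO, against 15.4% and 12.6% of all genes. In WT they were 9.09% up and 0% down, against 8.63% and 5.34%. The median log2 difference of the 11 was 0.30 in KO and 0.45 in WT, beside 0.06 and 0.06 over all genes. Col3a1, the type III chain of fine reticular fibers, rose in both genotypes. Its log2 signals were 10.72, 7.96 and 10.15 in KO AKI, against 6.77, 6.74 and 7.50 in KO control, and 10.24, 9.89 and 9.53 in WT AKI, against 8.48, 8.29 and 7.88 in WT control. KO AKI replicate 2 lay far below the other AKI arrays but above the KO control arrays. The rise was 6.08-fold in KO (log2 difference 2.61, SE 0.52, adjusted p = 0.00267) and 3.18-fold in WT (log2 difference 1.67, SE 0.52, adjusted p = 0.0489). Without KO AKI replicate 2 the KO difference was 3.43 (adjusted p = 2.01e-06). The WT call was lost without any of the arrays other than KO AKI replicates 1 and 2, the adjusted p reaching 0.148. It was also lost after median centring and with the filter on dim genes.

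The type I chains followed with smaller differences. Col1a2 had log2 signals of 9.04, 7.34 and 8.95 in KO AKI, against 7.20, 7.60 and 7.50 in KO control, and of 8.67, 8.65 and 8.43 in WT AKI, against 7.96, 8.18 and 8.25 in WT control. In KO the groups overlapped, since KO AKI replicate 2 lay among the controls. Col1a2 was called up in KO (log2 difference 1.01, SE 0.35, adjusted p = 0.0461) and not in WT (log2 difference 0.46, SE 0.35, adjusted p = 0.409). The adjusted p in KO was 9.28e-05 when KO AKI replicate 2 was left out. The KO call was lost without any of the other 11 arrays, the adjusted p reaching 0.161 without KO AKI replicate 3. It was also lost after median centring, with the replicate number as a block and in a fit of the 2 groups compared.

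Col1a1 was above background on 0 control arrays, so its rise has only a lower bound. Its log2 signals were 7.42, 6.26 and 7.14 in KO AKI, against 5.66, 5.79 and 6.25 in KO control, and 6.90, 6.70 and 6.59 in WT AKI, against 5.47, 6.19 and 6.11 in WT control. All AKI arrays lay above the controls of their genotype. Taking the background of each control array as its level, Col1a1 rose at least 1.50-fold in KO (adjusted p = 0.018, with KO AKI replicate 2 below background). The call was lost without KO AKI replicate 1 or 3 or without KO control replicate 1 or 2, the adjusted p reaching 0.0717. In WT the bound was 1.41-fold and the adjusted p was 0.0843, or 0.0238 without KO AKI replicate 2. Col24a1, a minor fibrillar chain, was below background on all arrays and had 3.12, 2.83 and 3.06 in KO AKI, against 3.91, 4.14 and 3.69 in KO control (adjusted p = 0.0106). Neither Col27a1 nor Col11a2, cartilage collagens above background on all arrays, passed in either genotype, with log2 differences of 0.54 and 0.01 in KO and -0.11 and 0.05 in WT.

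The type V chains were read within background in every group. The means of Col5a1, Col5a2 and Col5a3 were 3.18, 4.37 and 3.83 in KO AKI, against 3.27, 4.50 and 3.61 in KO control. They were 3.43, 5.17 and 4.44 in WT AKI, against 3.61, 5.26 and 3.86 in WT control, and 0 of the 3 was called in any comparison by limma. At an unadjusted p under 0.05, Col5a3 was up in WT after cisplatin, Col5a2 and Col5a3 were lower in KO AKI than in WT AKI (log2 differences -0.80 and -0.61), and Col5a2 was lower in KO control than in WT control (-0.76).

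**Figure D3:**
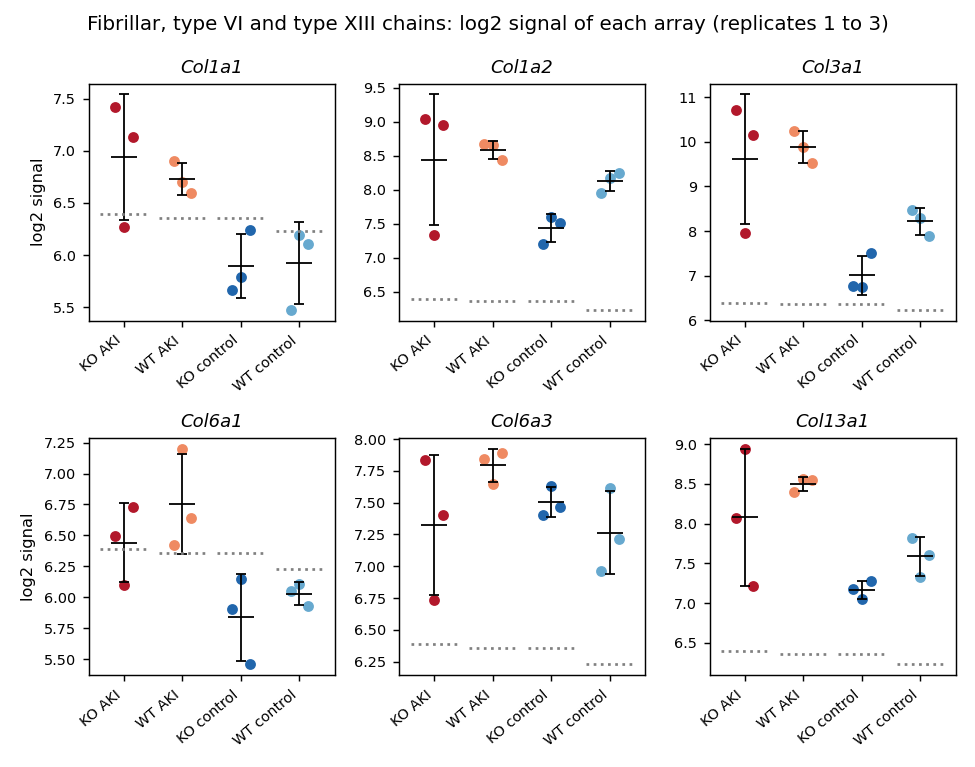
Log2 signal (y axis) of each array for the type I and III chains, Col6a1, Col6a3 and Col13a1, by group (x axis). Points are arrays, bars show the mean and SD of 3 arrays and dotted lines the mean background of the group; KO AKI replicate 2 (the middle point of its group) is the lowest KO AKI array for Col1a1, Col1a2, Col3a1, Col6a1 and Col6a3 and the highest for Col13a1.

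Type VI collagen forms beaded filaments around cells from the α1, α2 and α3 chains. Col6a3, its only chain above background on all arrays, had log2 signals of 7.83, 6.74 and 7.41 in KO AKI, against 7.40, 7.63 and 7.47 in KO control, and of 7.84, 7.65 and 7.89 in WT AKI, against 6.97, 7.61 and 7.22 in WT control. It did not pass in either genotype (adjusted p = 0.652 in KO and 0.191 in WT). Col6a1 had 6.49, 6.10 and 6.73 in KO AKI, against 5.91, 6.15 and 5.46 in KO control, and 6.42, 7.20 and 6.64 in WT AKI, against 6.05, 6.11 and 5.93 in WT control. It lay above background on 2 KO AKI and 3 WT AKI arrays and on 0 control arrays, and its adjusted p was 0.0896 in KO and 0.0708 in WT, or 0.0456 and 0.04 without KO AKI replicate 2. Col6a2, the neighbour of Col6a1, was below background, with adjusted p of 0.0617 in KO and 0.088 in WT, or 0.0243 and 0.0174 without WT control replicate 3. Of the 6 type VI genes, 0 were called in KO, beside 15.4% of all genes up, with 2 up at an unadjusted p under 0.05. In WT 1 was called, or 16.7%, beside 8.63% of all genes up. That gene was Col6a4, which is below background on all arrays and had 5.51, 5.25 and 5.38 in WT AKI, against 4.26, 4.38 and 4.90 in WT control (adjusted p = 0.0295). Its call was lost without any of the WT AKI arrays or without WT control replicate 1 or 2, the adjusted p reaching 0.11. The remaining chains Col6a5 and Col6a6 were below background and were not called.

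Among the other members, Col13a1, a transmembrane collagen of cell adhesions, had log2 signals of 8.07, 8.94 and 7.22 in KO AKI, against 7.17, 7.05 and 7.27 in KO control, and of 8.40, 8.56 and 8.54 in WT AKI, against 7.82, 7.33 and 7.61 in WT control. The difference was of equal size in both, with a log2 difference of 0.91 in KO (SE 0.32, adjusted p = 0.04999) and of 0.91 in WT (SE 0.32, adjusted p = 0.0769), of which the KO one was called. The KO groups overlapped, since KO AKI replicate 3 lay among the controls, and the call was lost without any array other than KO AKI replicate 3, with a difference of 0.48 and an adjusted p of 0.186 without KO AKI replicate 2. Without that array the WT difference was called instead (adjusted p = 0.0109), as it was without KO AKI replicate 3 (0.022). Col25a1, a transmembrane collagen known from neurons, rose at least 1.15-fold in WT AKI over WT control (adjusted p = 0.018), with 6.83, 6.00 and 6.47 against 5.60, 5.64 and 5.33. This call was lost without WT AKI replicate 1 or 3 or WT control replicate 3, the adjusted p reaching 0.0804. Col8a2, a short-chain collagen of the corneal endothelial membrane, and the fibril-associated Col16a1 and Col20a1 lay above background on all arrays, and their log2 differences were -0.34, 0.04 and 0.01 in KO and -0.20, 0.18 and -0.11 in WT, with none called.

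The other called members were read within background. Col8a1, a short-chain collagen of vessel walls, had log2 signals of 4.85, 4.45 and 5.22 in KO AKI, against 4.21, 3.83 and 3.96 in KO control (adjusted p = 0.0138), and of 4.72, 4.76 and 5.06 in WT AKI, against 4.29, 3.87 and 4.16 in WT control (adjusted p = 0.0436). In both genotypes the AKI arrays lay above the controls. The KO call was lost without KO AKI replicate 3 or KO control replicate 2 (adjusted p up to 0.0553) and the WT call without any array other than those of KO AKI (adjusted p up to 0.143). Besides Col24a1 and Col4a5, 3 members fell in KO within background and are given as mean log2 signals. Col14a1, which binds fibrils, had 5.03 in KO AKI, against 5.64 in KO control (adjusted p = 0.0381). Col22a1, known from tissue junctions, had 5.20 against 5.73 (adjusted p = 0.0408), and Col26a1 had 3.53 against 4.31 (adjusted p = 0.0165). The call of Col14a1 was lost without KO AKI replicate 1 or 2 or KO control replicate 1 or 2, that of Col26a1 without KO AKI replicate 1 or KO control replicate 2 or 3, and that of Col22a1 without KO AKI replicate 2 or 3, WT AKI replicate 3, WT control replicate 3 or any KO control array, with adjusted p up to 0.114, 0.0718 and 0.115.

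**Figure D4:**
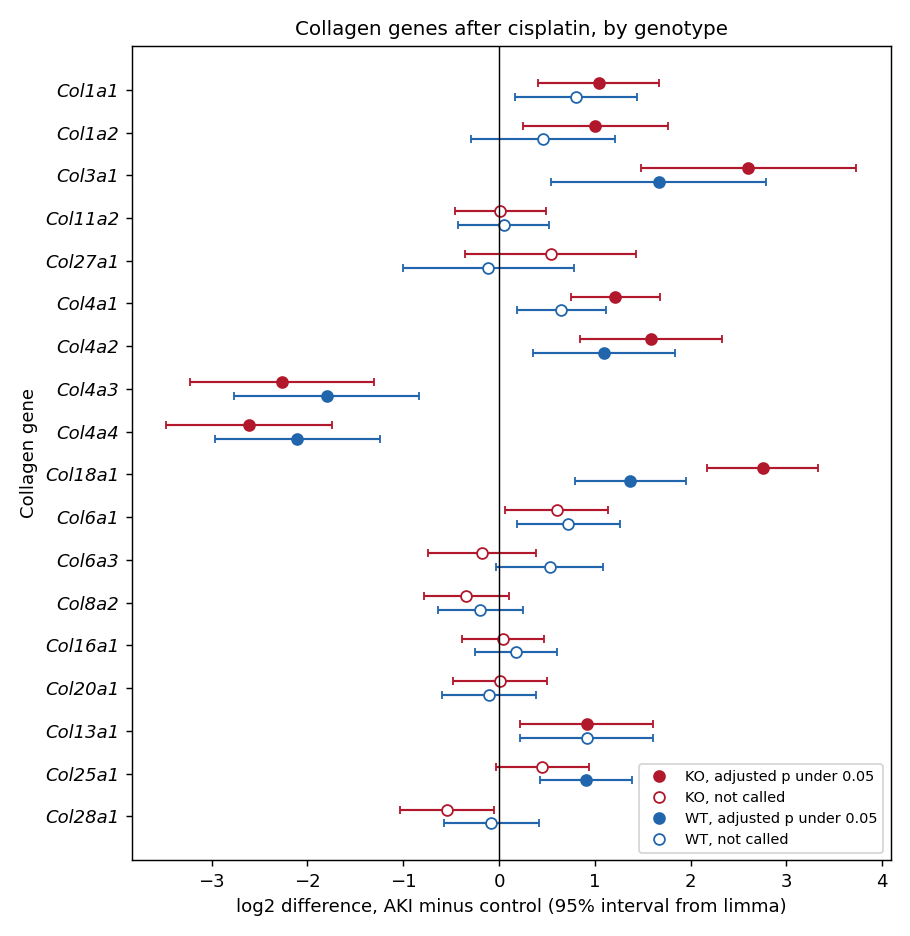
Log2 difference of AKI from control (x axis, with 95% intervals from limma) in KO and in WT kidneys for the 18 collagen genes above background on at least 1 array (y axis). Filled points passed an adjusted p under 0.05; Col18a1 and Col3a1 have the largest differences above 0 and Col4a4 and Col4a3 the largest below 0 in both genotypes, and where a group lies below background (controls for Col1a1, Col6a1 and Col25a1) the plotted value was read partly against background.

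The genotypes were compared next, with the question whether the loss of Apobec1 altered collagen genes in injured or in uninjured kidneys. Of the 42 collagen genes, 0 were called between KO AKI and WT AKI by limma, against 0.246% of all genes up and 0.241% down. At an unadjusted p under 0.05 there were 1 up and 8 down, or 21.4% of the members, beside 15.3% of all genes. Among the 16 members above background on at least 3 arrays there were 1 up and 1 down, or 12.5%. Of all genes above background on at least 3 arrays it was 22.6%. The log2 difference was below 0 for 34 of the 42, beside 9993 of all 19505 genes, and for 11 of the 16 members above background on at least 3 arrays. The median was -0.27 over the 42 and -0.22 over the 16, beside -0.01 over all genes. The largest difference was that of Col18a1, which was 2.26-fold higher in KO AKI than in WT AKI (log2 difference 1.18, 95% interval 0.60 to 1.76, SE 0.27). Its adjusted p of 0.065 did not pass, and it was 0.00833 without KO AKI replicate 1 and at most 0.379 under the other settings tried.

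Col18a1 was also the 1 member whose KO AKI arrays all lay above the WT AKI arrays, where 8.42% of all genes did so. In 5 members all KO AKI arrays lay below the WT AKI arrays, or 11.9% of the members, against 8.76% of all genes. Only Col16a1, a fibril-associated collagen, was above background among these, with log2 signals of 8.22, 8.24 and 7.89 in KO AKI and 8.75, 8.79 and 8.73 in WT AKI (log2 difference -0.64, SE 0.20, adjusted p = 0.145). The other 4 were Col15a1, Col6a4, Col6a5 and Col14a1. For Col4a3 and Col4a4 the log2 differences were -0.33 (95% interval -1.29 to 0.64) and -0.37 (95% interval -1.23 to 0.50), with overlapping groups, and these intervals leave room for differences of more than 1 log2 unit.

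Between KO control and WT control, 0 of the 42 were called by limma, against 0.0103% of all genes up and 0.041% down. At an unadjusted p under 0.05 there were 0 up and 5 down, or 11.9% of the members, beside 6.17% of all genes. In 7 members, 16.7%, all KO control arrays lay below all WT control arrays, against 7.37% of all genes, and in 0 members all lay above, against 7.25% of all genes. Of the 7, Col3a1, Col1a2, Col16a1 and Col13a1 were above background on all arrays. Col3a1 had log2 signals of 6.77, 6.74 and 7.50 in KO control, against 8.48, 8.29 and 7.88 in WT control (log2 difference -1.22, SE 0.52, adjusted p = 0.762). Col1a2 had 7.20, 7.60 and 7.50, against 7.96, 8.18 and 8.25 (log2 difference -0.69, SE 0.35, adjusted p = 0.841). Col16a1 had 7.99, 8.23 and 8.02, against 8.39, 8.40 and 8.94 (log2 difference -0.50, SE 0.20, adjusted p = 0.748), and Col13a1 differed by -0.42 (SE 0.32, adjusted p = 0.939). The others, Col5a2, Col6a5 and Col9a1, were below background. The fibrillar Col11a2 and Col27a1 and the type VI chain Col6a3, also above background on all arrays, overlapped between the groups. Their log2 differences were -0.12, -0.29 and 0.24. Of 9 fibroblast and pericyte genes, 0 were called in this comparison and 2 were down at an unadjusted p under 0.05. These were Dpt, dermatopontin of the matrix, with 4.88, 6.57 and 5.67 in KO control, against 6.86, 7.90 and 6.97 in WT control, and Cygb, cytoglobin, with 6.33, 5.79 and 6.95, against 7.24, 7.52 and 7.20. Neither overlapped between the groups. In KO control, Dpt was above background only on replicate 2 and Cygb only on replicate 3. Of the 9 genes, 6 were higher in KO control than in WT control, and the median log2 difference was 0.10. The part of these genes in the collagen signals was not tested. Col16a1 lay wholly below WT in both comparisons, as did Col6a5, which was below background on all arrays. The share of all genes that did so in both is not given here.

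**Figure D5:**
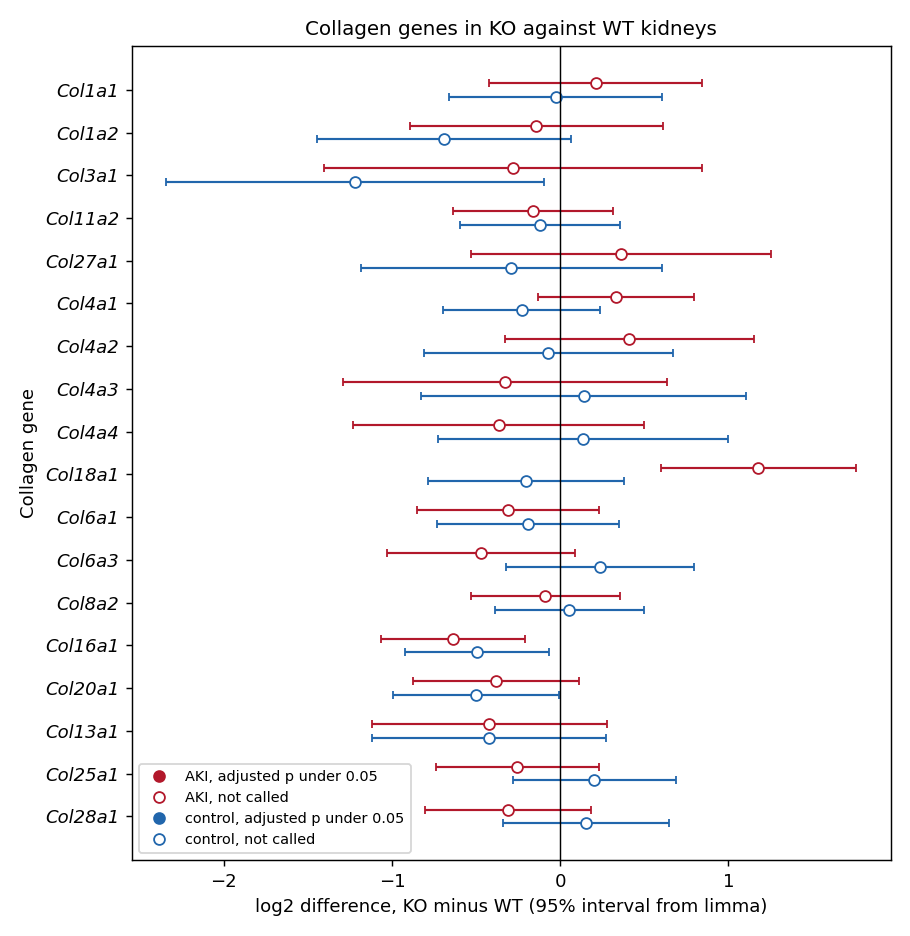
Log2 difference of KO from WT (x axis, with 95% intervals from limma) in AKI and in control kidneys for the 18 collagen genes above background on at least 1 array (y axis). No point is filled, since 0 genes passed an adjusted p under 0.05; Col18a1 in AKI has the largest difference above 0, at 1.18, and Col3a1 in control the largest below 0, at -1.22.

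Whether the response to cisplatin itself differed between the genotypes was tested as an interaction, the KO response minus the WT response. Of the 42 collagen genes 0 were called by limma, against 0.0103% of all genes up and 0.0205% down, and at an unadjusted p under 0.05 there were 1 up and 3 down, or 9.52% of the members, beside 10.4% of all genes. The 1 was Col18a1, whose response was larger in KO by 1.38 on the log2 scale (95% interval 0.56 to 2.20, SE 0.38, adjusted p = 0.245, and 0.0403 without KO AKI replicate 1). The 3 were Col4a6, Col15a1 and Col14a1, all below background. The rise of Col3a1 was larger in KO by 0.94 on the log2 scale, with an unadjusted p above 0.05, and without KO AKI replicate 2 this difference was 1.76 (adjusted p = 0.0931). The comparisons share control and AKI arrays, so the lower Col3a1 signals of KO control enter this difference too.

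KO AKI replicate 2 moved the collagen genes in both directions. Among the 18 members above background on at least 1 array, it was the lowest KO AKI array in 7 and the highest in 7. It was lowest for the fibrillar chains Col1a1, Col1a2 and Col3a1, for Col6a3 and for Col4a3 and Col4a4, and highest for Col4a2, Col18a1 and Col13a1. The median SD of these 18 members was 0.575 among KO AKI arrays, against 0.288 among WT AKI arrays, and 0.237 and 0.251 among those of KO control and WT control. Over all 10469 genes above background on at least 1 array it was 0.365 in KO AKI, against 0.228 in WT AKI. Without that array 10 members rose and 5 fell in KO, against 12.7% and 10.1% of all genes, and 12 rose and 3 fell in WT, against 12.2% and 8.49% of all genes.

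Markers of other cells were read after cisplatin too. Beside them, 15.4% of all genes rose and 12.6% fell in KO, and 8.63% rose and 5.34% fell in WT. Of 9 fibroblast and pericyte genes, 1 rose and 1 fell in KO (Cygb up by a log2 difference of 1.10, Rgs5 down by -1.41), and 1 rose and 1 fell in WT, each 11.1% of the list. Their median log2 difference was 0.65 in KO and 0.62 in WT, beside 0.30 and 0.45 for the fibrillar collagens. Their summed log2 level was 11.50 to 11.70 in KO AKI, against 11.03 to 11.45 in KO control, and 11.20 to 11.67 in WT AKI, against 10.63 to 11.61 in WT control. Pdgfrb, a pericyte receptor, differed by 0.65 in KO and 0.49 in WT and was not called, and Gli1 was below background on all arrays. Endothelial genes, which mark a source of Col4a1, Col4a2 and Col18a1, fell in KO: 5 of 8 were called down, Kdr by -2.19 and Emcn by -1.87, and their summed level was 12.44 to 13.02 in KO AKI, against 13.67 to 14.06 in KO control. In WT 0 of 8 were called, with 1 up and 2 down at an unadjusted p under 0.05, and levels were 12.45 to 12.76 in WT AKI, against 12.57 to 13.42 in WT control. Between KO AKI and WT AKI the median log2 difference of the 8 was 0.04, and between KO control and WT control it was 0.98. Flt1, a VEGF receptor, had a log2 difference of 0.67 in KO after cisplatin and was not called. Of 7 macrophage and monocyte genes, 3 rose in KO and 0 were called in WT, where 3 were up at an unadjusted p under 0.05, with levels of 10.34 to 12.61 in KO AKI, against 10.09 to 10.79 in KO control, and 10.46 to 11.26 in WT AKI, against 10.48 to 10.51 in WT control. All 5 tubule injury genes rose in both, with a summed level of 19.13 to 20.90 in KO AKI, against 9.45 to 9.89 in KO control, and 16.87 to 18.06 in WT AKI, against 10.52 to 12.34 in WT control. The part of these cells in the collagen changes was not tested.

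Collagen needs chaperones and modifying enzymes in the endoplasmic reticulum. Of 18 such genes, 6 rose and 3 fell in KO. In WT 2 rose and 0 fell, and 3 were down at an unadjusted p under 0.05. These were 33.3% up and 16.7% down in KO, against 15.4% and 12.6% of all genes. In WT they were 11.1% up and 0% down, against 8.63% and 5.34%. Serpinh1, the chaperone HSP47 that binds the collagen helix, had log2 signals of 9.70, 9.22 and 9.37 in KO AKI, against 8.08, 8.35 and 8.52 in KO control, and rose 2.16-fold (adjusted p = 0.00158). Sparc, a secreted collagen-binding glycoprotein, had 13.83, 14.59 and 13.49 in KO AKI, against 11.72, 12.24 and 12.83 in KO control, and rose 3.25-fold (adjusted p = 0.002). In WT the log2 differences were 0.62 for Serpinh1 and 0.68 for Sparc, and neither passed (adjusted p = 0.0589 and 0.183), although Serpinh1 did without KO AKI replicate 1 or 2 (0.0495 and 0.0396). P3h2, a prolyl 3-hydroxylase known to act on type IV collagen, had 11.89, 9.91 and 11.41 in KO AKI, against 13.32, 13.17 and 12.95 in KO control, and was 4.22-fold lower (adjusted p = 0.00124). Its log2 difference in WT was -0.93 (adjusted p = 0.108), and with KO AKI replicate 2 left out it was called (0.00445). Colgalt2, a collagen galactosyltransferase, was above background on 0 KO AKI arrays and 3 KO control arrays and fell at least 1.52-fold (adjusted p = 0.000166).

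Of 13 genes that trim or crosslink secreted collagen, 5 rose in KO and 1 in WT, with 0 down in either. At an unadjusted p under 0.05 there were also 0 down. The rises were 38.5% of the list in KO, against 15.4% of all genes, and 7.69% in WT, against 8.63%. Tgm2, a transglutaminase that crosslinks matrix proteins, had 9.52, 10.64 and 9.19 in KO AKI, against 8.18, 8.51 and 8.16 in KO control, and rose 2.83-fold (adjusted p = 0.00245). Bmp1, the protease that removes the C-terminal propeptide of fibrillar collagen, and Lox, the crosslinking lysyl oxidase, were above background on 1 KO AKI array each and on 0 KO control arrays, and were called up (adjusted p = 0.000937 and 0.0231). The 1 array was KO AKI replicate 2 for both, and without it neither reached background, so no fold is given. Loxl4, a relative of Lox, rose at least 1.44-fold (adjusted p = 0.0148), or 1.205-fold without that array. The call of Lox was lost without KO control replicate 1 (adjusted p = 0.0961), and that of Loxl4 without KO AKI replicate 2 or KO control replicate 2 (adjusted p up to 0.0607). The WT call was Bmp1, which was below background there, and it was lost without WT control replicate 1 (adjusted p = 0.0558).

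Of 17 genes of collagen breakdown, 4 rose and 1 fell in KO. In WT 1 rose and 0 fell, with 0 down at an unadjusted p under 0.05. These were 23.5% up and 5.88% down in KO, against 15.4% and 12.6% of all genes. In WT they were 5.88% up and 0% down, against 8.63% and 5.34%. Only Ctsl, the lysosomal protease cathepsin L, was above background among those with the smallest p, and it rose 2.64-fold in KO (adjusted p = 0.0122). The metalloproteinases Mmp3 and Mmp8 were called up and Mmp13 down in KO while below background on all arrays. Of 5 metalloproteinase inhibitors, 2 rose and 2 fell in KO (40% each), and 1 rose and 1 fell in WT (20% each). Timp1, a secreted inhibitor of metalloproteinases, was above background on all AKI arrays and 0 control arrays, with 8.90, 8.98 and 9.03 in KO AKI, against 3.35, 3.40 and 3.12 in KO control, and 8.88, 8.98 and 8.90 in WT AKI, against 4.14, 4.34 and 3.69 in WT control. It rose at least 6.12-fold in KO (adjusted p = 1.49e-09) and at least 6.44-fold in WT (adjusted p = 1.94e-08). Timp3, the inhibitor that stays bound to the matrix, fell 3.37-fold in KO (log2 difference -1.75, adjusted p = 0.00104) and 3.42-fold in WT (log2 difference -1.77, adjusted p = 0.00253). Reck, a membrane-anchored inhibitor, fell at least 1.40-fold in KO (adjusted p = 0.00472), and Timp4 was called up in KO while below background.

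Of 7 collagen receptors, 4 rose and 0 fell in KO. In WT 0 rose and 1 fell, and 1 was up at an unadjusted p under 0.05. These were 57.1% up in KO, against 15.4% of all genes, and 14.3% down in WT, against 5.34%. Itgb1, the β1 chain of the collagen-binding integrins, rose 2.74-fold in KO (adjusted p = 0.000938), and its log2 difference in WT was 0.76 (adjusted p = 0.0568, and 0.00852 to 0.0488 without any 1 of the KO AKI arrays). Ddr1, a receptor tyrosine kinase activated by collagen, rose 2.22-fold in KO (adjusted p = 0.00374). Itga2, the integrin α2 chain, and Lair1, an inhibitory collagen receptor of leukocytes, were above background on 1 KO AKI array each and 0 KO control arrays and were called up (adjusted p = 0.0362 and 0.041). The call of Itga2 was lost without KO AKI replicate 2 or any KO control array, and that of Lair1 without KO AKI replicate 1, WT AKI replicate 3, KO control replicate 1 or 2, or WT control replicate 2 or 3, with adjusted p up to 0.126 and 0.146. The WT call was Ddr2, a receptor for fibrillar collagen, which was at least 1.65-fold lower (adjusted p = 0.014, and up to 0.0585 without WT AKI replicate 2 or WT control replicate 1 or 2).

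The partners of collagen in basement membranes moved in both directions in KO. Of 14 such genes, 3 rose and 5 fell in KO. In WT 2 rose and 0 fell, and 3 were down at an unadjusted p under 0.05. These were 21.4% up and 35.7% down in KO, against 15.4% and 12.6% of all genes. In WT they were 14.3% up and 0% down, against 8.63% and 5.34%. Agrn, a heparan sulfate proteoglycan of basement membranes, had 11.26, 11.39 and 11.33 in KO AKI, against 9.37, 9.75 and 9.36 in KO control, and rose 3.56-fold (adjusted p = 0.000132), with 2.44-fold in WT (adjusted p = 0.00376). Lamc1, the laminin γ1 chain, rose 2.60-fold in KO (adjusted p = 0.00278) and 1.93-fold in WT (adjusted p = 0.0372, lost without any WT array or KO control replicate 2, with up to 0.137). Lamc3 and Lama4, other laminin chains, were above background on 0 KO AKI arrays and all KO control arrays and fell at least 1.43-fold and 1.27-fold (adjusted p = 0.000185 and 0.00675). Of 15 interstitial matrix genes, 3 rose and 0 fell in KO, where 2 were down at an unadjusted p under 0.05. In WT 3 rose and 1 fell. These were 20% up and 0% down in KO, against 15.4% and 12.6% of all genes. In WT they were 20% up and 6.67% down, against 8.63% and 5.34%. Fn1, fibronectin, which fibrillar collagen is deposited on, had 9.58, 9.31 and 8.75 in KO AKI, against 6.41, 7.002 and 7.09 in KO control, and rose 5.21-fold (adjusted p = 0.000163), with 2.46-fold in WT (adjusted p = 0.0166, and up to 0.0732 without WT AKI replicate 1 or WT control replicate 3). Ccn1, a matricellular protein, rose 5.64-fold in KO and 5.30-fold in WT (adjusted p = 0.019 and 0.0392), and Bgn, the collagen-binding proteoglycan biglycan, rose 1.78-fold in KO (adjusted p = 0.0334). The call of Ccn1 was lost in KO without KO AKI replicate 3 or KO control replicate 1 (adjusted p up to 0.0913) and in WT without any WT AKI array, WT control replicate 1 or 3 or KO control replicate 3 (up to 0.146). That of Bgn was lost without KO AKI replicate 2 or 3 or KO control replicate 1 or 3 (up to 0.12). With all arrays, 0 genes of these 7 lists were called between the genotypes by limma in AKI or in control. Of all genes, 0.246% were called up and 0.241% down in AKI. With all arrays, each list had between 1 and 5 genes at an unadjusted p under 0.05 in AKI, or 13.3% to 35.7% of a list. Of all genes it was 15.3%, and the receptors (14.3%) and the interstitial matrix genes (13.3%) lay below that share. In control each list had between 0 and 3 such genes, or 0% to 40% of a list, beside 6.17% of all genes. Without KO AKI replicate 1, 7 genes of the lists were called in AKI, namely Crtap, Itgb1, Lamc1, Lox, Loxl1 and Nid1 up and P3h2 down. That fit keeps KO AKI replicate 2, the array that stood apart, with replicate 3 as the only other of its group. The share of all genes called in that fit is not given here.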

How the data were processed

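Per the labels, the authors' deposited values are log2 signals of probe sets from Transcriptome Analysis Console. Its version, and how background was corrected and arrays normalized, are not given in the sources used here. The deposited log2 signals were used without further normalization. Of 28846 rows, 19572 probe sets had 1 gene symbol and 0 had several; where a gene had several, the brightest on average was kept, which left 19505 genes. Groups and replicate numbers came from the sample titles. The labels state cisplatin for 3 days, as do the study's methods for the arrays, while its methods for the mice give 4 days. The labels name no batch or scan.

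Group means were fitted to all 12 arrays with limma 3.58.1 in R 4.3.3 (8 residual and 5.6 prior degrees of freedom), with 5 contrasts and Benjamini-Hochberg adjustment over all genes. The intervals are at 95%. Simulated data in place of KO AKI over KO control, over 19505 genes, were checked first. With 3 arrays a group, the number of arrays limits the precision, and an exact permutation test cannot give a p below 0.1. Folds with 1 group above background on no array are bounds against the mean background of its arrays. The p-values rest on 1 spread per gene between mice, 1 array each, pooled over the 4 groups and moderated over all genes. They do not measure the spread of a single group. Leaving out an array of 1 group can therefore change a call between other groups, as with WT calls when a KO AKI array is left out.

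The members, the gene lists, the tests and the rule for named genes were chosen with earlier results of these data known. The rule took all type I, III, IV, V and VI chains, every other collagen gene called, up to 4 called genes with the smallest p in KO AKI over KO control from each related list, and up to 3 markers of a cell type; Col8a2, Col11a2, Col16a1, Col20a1, Col27a1, Col28a1, Ddr2, Gli1, Dpt, Flt1, Crtap, Loxl1 and Nid1 were added after their values were seen. Gene neighbours came from RefSeq, GRCm38.p6. Alternatives were quantile normalization, median centring, array weights, a filter on dim genes, the mean of a gene's probe sets, the replicate number as a block, fits of the 2 groups compared, the thresholds in the study's methods (an unadjusted p under 0.01 and a fold over 2) and leaving out each array. Promoter motifs, planned at the outset, were not analysed here.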

Additional observations from a re-analysis of the deposited data

How the results depend on the processing

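Of 26 called collagen results, 0 reversed their direction under the alternatives tried, 10 kept their call under all alternatives and 11 without each of the 12 arrays in turn. Scaling alone removed some calls. Median centring removed the WT calls of Col3a1, Col4a2, Col6a4 and Col8a1 and the KO calls of Col1a2 and Col13a1. Quantile normalization removed those of Col4a2, Col6a4 and Col8a1 in WT and of Col13a1 in KO. Of 41 calls of other named genes, 0 reversed and 29 were kept without each array in turn. The causes of the changes were not tested. Collagen genes called up in WT AKI over WT control (8) numbered 5 after quantile normalization, 4 after median centring, 13 with array weights, 1 with genes above background on at least 3 arrays, 5 at the study's thresholds, and 3 to 12 with an array left out. The dim filter leaves 16 of the 42 collagen genes to be tested. Those called down (2) numbered 5 after quantile normalization, 5 after median centring, 5 with array weights, and 1 to 3 with an array left out. Collagen genes called up in KO AKI over KO control (9) numbered 4 in a fit of those 2 groups alone, 5 at the study's thresholds and 4 to 10 with an array left out. Those called down (7) numbered 2 with the dim filter, 3 in the fit of 2 groups, 2 at the study's thresholds and 3 to 7 with an array left out. The lowest counts came without KO control replicate 2 in KO and without WT AKI replicate 1 or 3 for rises in WT. Between KO AKI and WT AKI, and for the difference between the cisplatin responses, the count up (0) was 1, Col18a1, at the study's thresholds, and 0 to 1 with an array left out, the 1 without KO AKI replicate 1. The other counts between genotypes were 0 under all alternatives.

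Replicate numbers are shared by the groups, but same-numbered arrays did not deviate together: the correlations of their deviations from the group means, across genes, lay between -0.11 and 0.09 over 18 pairs, and 0 pairs were over 0.1. With the replicate number as a block, the collagen genes called down in KO AKI over KO control numbered 4 in place of 7, and no other count moved by over 1.5 times.

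Dim signals limit what can be read: 24 of the 42 collagen genes were above background on no array.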

Other observations

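Endothelial genes were also read between the uninjured groups. All 8 were higher in KO control than in WT control, with log2 differences from 0.51 to 1.35 and a median of 0.98. Of all 19505 genes, 9629 were higher. At an unadjusted p under 0.05 there were 7 of the 8, or 87.5%, beside 6.17% of all genes in either direction. By limma 0 were called, against 0.0103% of all genes up. Their summed log2 level was 13.67 to 14.06 in KO control, against 12.57 to 13.42 in WT control.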
